A study of Homo sapiens with 4 samples.

Results

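The beads library is replicate 4 of the crosslinked PR100-FLAG libraries, and it is 1 of the 4 libraries held. It was chosen by its label: its protein-RNA complexes were purified by immunoprecipitation with beads, whereas those of replicates 1 to 3 were separated by SDS-PAGE, which the methods of the study say was followed by transfer to nitrocellulose. The comparison asks where crosslinking in the beads library lay outside the range of the 3 SDS-PAGE libraries. All 4 libraries came from HEK293T, a transformed human embryonic kidney line, transiently transfected with a plasmid for PR100 with a triple FLAG tag. In all of them expression was induced with doxycycline at 150 ng/ml for 24 h, the cells were irradiated once with UV light of 254 nm at 160 mJ/cm2, a mouse anti-FLAG antibody was used, and RNA was released with proteinase K. Random barcodes of 7 nt marked the cDNAs of the beads library and of replicates 1 and 2, and replicate 3 had barcodes of 5 nt. The protein was made from a transfected plasmid and not from the repeat in its own gene, and the libraries of cells with the FLAG tag alone and of cells without UV light were not analysed here. The labels do not say whether the replicates came from separate cultures, so the spread among replicates 1 to 3 may be technical. With 1 library on the beads side, purification and preparation run cannot be told apart, and an exact permutation test over the 4 libraries can give no one-sided p below 0.25.

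Poly(PR) is a dipeptide of proline and arginine made from the expanded C9orf72 repeat, and its many positive charges let it bind RNA and nucleolar proteins. In iiCLIP, UV light joins protein to the RNA it touches, and reverse transcription tends to stop at the peptide left on the RNA. The nucleotide before the start of the cDNA is taken as the crosslinked position, and each unique cDNA is 1 crosslinking event. C/D box snoRNAs are short nucleolar RNAs, most of them cut out of the introns of other genes, that guide methylation of ribosomal RNA. They carry a C box near the 5′ end and a D box near the 3′ end, which are bound by the core proteins of the particle.

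By exonic events, the genes that lay furthest above the SDS-PAGE range in the beads library were C/D box snoRNAs. The sequences of SNORD18B, SNORD2 and SNORD57, which are among them, are shown first. The sequence of SNORD24, picked after its values were seen, is added, although several protein-coding genes lay further above than SNORD24. The 4 sequences were read from GRCh38 on the strand of the gene, 5′ to 3′, at the coordinates of GENCODE 44: SNORD18B at chr15:66502020-66502091 on the minus strand, SNORD2 at chr3:186784796-186784864 on the plus strand, SNORD57 at chr20:2656939-2657010 on the plus strand, and SNORD24 at chr9:133349396-133349470 on the plus strand. Capitals mark the letters TGATGA of the C box within the first 20 nt and the last CTGA of the D box within the last 15 nt, both searched on the RNA strand only. Of the 313 annotated C/D snoRNA genes, 65.5% held TGATGA and 87.2% held CTGA at those places. The whole TGATGA was found in SNORD18B and SNORD57 and not in SNORD2 and SNORD24.
SNORD18B: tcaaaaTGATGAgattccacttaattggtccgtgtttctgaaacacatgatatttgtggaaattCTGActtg
SNORD2: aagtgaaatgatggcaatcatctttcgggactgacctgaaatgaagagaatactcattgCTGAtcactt
SNORD57: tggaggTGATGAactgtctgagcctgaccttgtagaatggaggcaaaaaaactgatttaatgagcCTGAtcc
SNORD24: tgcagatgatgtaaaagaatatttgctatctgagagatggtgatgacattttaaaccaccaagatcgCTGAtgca
In SNORD18B, nucleotide 23, counted from 1 at the 5′ end, held 40 of the 81 events of the beads library. The same nucleotide was the busiest in the SDS-PAGE libraries, with 31 of their 71 events, 13, 8 and 10 in replicates 1 to 3. In SNORD2 the first nucleotide was the busiest in both purifications, with 11 of 50 events in the beads library and 8 of 59 in the SDS-PAGE libraries, all 8 of them in replicate 2. In SNORD57 the busiest nucleotide was 47 in the beads library, with 9 of 60 events, and 30 in the SDS-PAGE libraries, with 22 of 89. In SNORD24 it was 14 in the beads library, with 15 of 116 events, and 20 in the SDS-PAGE libraries, with 20 of 196, so the busiest nucleotide was shared in 2 of the 4 snoRNAs.

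The depth was 179636 events in the beads library, against 334057, 604816 and 125694 in replicates 1 to 3. The totals of the beads library and of replicate 3 lie below the minimum of unique events per sample that the methods of the study set, for a reason not given in the sources used here, and every CPM and stacking value rests on these totals. Values are given below as CPM, the share of the library total that fell in a gene times 1000000, in the order of replicates 1, 2 and 3 and then the beads library. Counts are given where a value rests on few events, and intervals from counts cover counting error only. Of 12 genes that mark hepatocytes, red cells, lymphocytes and muscle, none had an exonic event in the beads library, and 2 intronic events fell in them. APOC3, an apolipoprotein gene not among the 12, had at least 200 pooled exonic events. Its log2 fold change in the beads library was 1.98 by edgeR, and the origin of these events was not tested. Replicate 3 stood apart from the other libraries in how its events were stacked, as described at the end, so counts that changed without it are given.

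The beads library held more of its events in annotated mRNA exons and fewer in introns than any SDS-PAGE library. Coding sequence took 13.3%, 19.2% and 14.5% of the events of replicates 1 to 3 and 30.4% of those of the beads library, or 1.58 times the highest SDS-PAGE value. Introns took 51.4%, 36.6% and 42.1% in replicates 1 to 3 and 31.7% in the beads library. The 3′ UTR share, 8.70% in the beads library, and the 5′ UTR share, 2.60%, were also above the SDS-PAGE ranges of 4.96% to 7.01% and 1.44% to 2.23%. Positions antisense to a gene made up 6.54% of the beads library and 8.88% to 13.4% of the SDS-PAGE libraries, and positions between genes 7.78% against 12.2% to 16.2%. The mitochondrial share was 6.52% in the beads library, close to the 5.94% of replicate 2 and above the 1.82% and 1.30% of replicates 1 and 3. The share on contigs outside the chromosomes, 0.917%, lay inside the SDS-PAGE range.

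**Figure D1:**
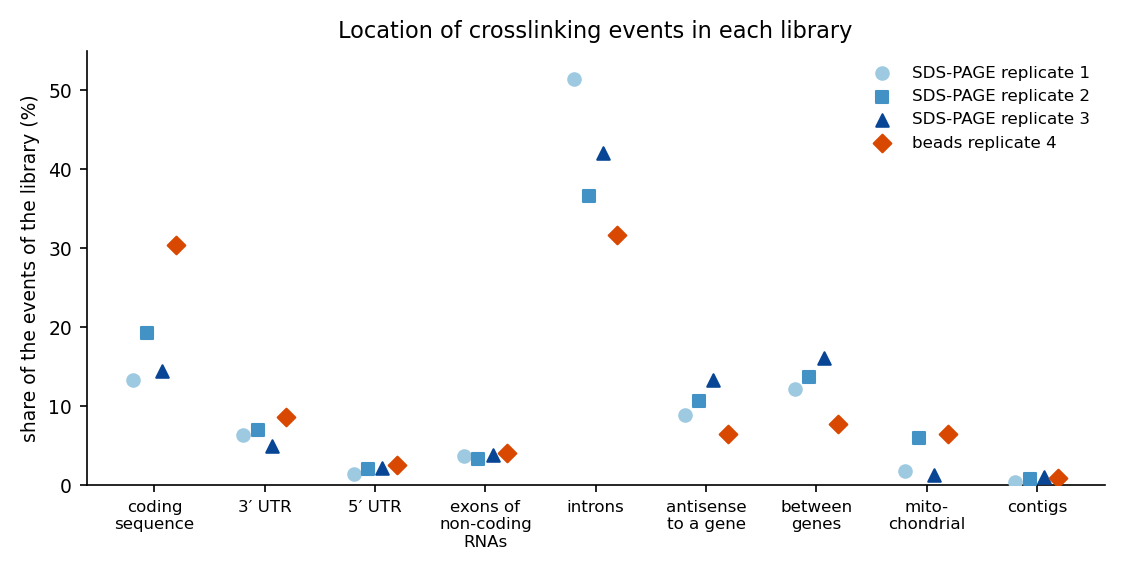
Share of the events of each library (percent, vertical axis) by where they lay (horizontal axis), with 1 point per library. The beads library lies above the 3 SDS-PAGE libraries in coding sequence (30.4%) and below them in introns (31.7%), antisense positions (6.54%) and positions between genes (7.78%).

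Within genes, exons held 62.5% of the exonic and intronic events of the beads library, against 34.6%, 50.9% and 39.3% in replicates 1 to 3 (41.6% ± 8.39, SD, n = 3). Without the mitochondrial genes the beads value was 59.4%, against 33.1% to 46.7%. Within mRNA exons, the beads library was also shifted towards coding sequence, which took 72.9% of its events there against 62.8%, 67.9% and 66.8%. The same shift was present gene by gene: in 2012 protein-coding genes with at least 100 pooled events and at least 5 in each library, the median exonic share was 27.7%, 43.5% and 28.0% in replicates 1 to 3 and 53.8% in the beads library. The exonic share of the beads library was above the range in 1038 of these genes (51.6%) and below it in 72 (3.58%). Without replicate 3, 1380 genes were above.

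Intronic events of the beads library also lay in shorter introns and shorter genes. Introns under 1 kb held 7.35% of its events in canonical introns, against 4.13%, 5.13% and 5.54%, and introns of 50 kb or more held 23.3%, against 27.2%, 26.5% and 26.5%. Genes under 20 kb took 9.73% of its intronic events, against 6.60% to 7.79%. In introns of 1 kb or more, the last 100 nt before the 3′ splice site held 2.50% in the beads library and 1.38%, 1.80% and 1.52% in replicates 1 to 3. The first 100 nt after the 5′ splice site showed no such difference, with 1.94% inside a range of 1.21% to 2.01%.

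For single genes, exonic and intronic events were compared separately among genes with at least 100 pooled events of that kind. Exons took a larger share of the whole beads library, and most genes were shifted in the same direction. Of 691 genes with exonic events, the beads library was above the SDS-PAGE range in 535 (77.4%) and below it in 14 (2.03%), and the median log2 ratio to the SDS-PAGE mean was 0.92. When each library was scaled to its exonic events in place of its total, this median was 0.18, with 234 genes (33.9%) above the range and 93 (13.5%) below. Of 1070 genes with intronic events, 80 (7.48%) lay above and 434 (40.6%) below, with a median log2 ratio of −0.50. Scaled to intronic events, 262 (24.5%) lay above and 263 (24.6%) below, with a median of −0.04. The plot of the beads library against the SDS-PAGE mean shows the exonic genes mostly over the line of equal levels and the intronic genes mostly under it.

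A gene was called when the beads library was at least 2-fold above the highest or 2-fold below the lowest SDS-PAGE library. By that rule 87 genes (12.6%) were called above and 1 (0.145%) below for exonic events, and 7 (0.654%) above and 49 (4.58%) below for intronic events. The SDS-PAGE libraries differed among themselves by a median of 2.18-fold from lowest to highest for exonic genes and 2.08-fold for intronic genes. In edgeR's quasi-likelihood test with Benjamini-Hochberg adjustment, which takes the spread from the SDS-PAGE libraries and assumes that the lone beads library varies alike, 0 of the 691 exonic genes passed in either direction (0.0%), with 57 at an unadjusted p under 0.05, all 57 higher. DESeq2 also passed 0 and had 18 at an unadjusted p under 0.05. Among intronic genes, edgeR passed 1 higher (0.0935%) and 0 lower (0.0%), with 6 higher and 16 lower at an unadjusted p under 0.05, and DESeq2 passed 0 with 25. The folds of single genes below are therefore descriptions of these 4 libraries.

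The minimum of 100 events can be passed through the beads library alone. Of the 87 exonic genes called above, 51 had 100 events in replicates 1 to 3. With a minimum of 85 events set in replicates 1 to 3 only, 62 of 590 genes (10.5%) were called above, all 62 among the 87. SNORD18B, with 71 SDS-PAGE events, SNORD2, with 59, and SNORD57, with 89, reached 100 through the beads library. HMGN5 and RPL35, described below, did so too. Of the 87 genes, 25 had under 85 events in replicates 1 to 3.

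Of the called exonic genes, SNORD18B (ENSG00000202529.1) lay furthest above. It had 33, 27, 11 and 81 events, or 98.8, 44.6 and 87.5 CPM in replicates 1 to 3 and 451 CPM in the beads library, 4.56 times the highest (95% counting interval 3.01 to 7.07). An unnamed snoRNA gene, ENSG00000280554, overlaps it and shares its reads. SNORD2 had 38.9, 67.8, 39.8 and 278 CPM, 4.11 times the highest. SNORD57, which lies within NOP56, had 83.8, 89.3, 55.7 and 334 CPM, 3.74 times the highest. SNORD3A, the U3 RNA that takes part in the cutting of the ribosomal RNA precursor, had 92.8, 109, 271 and 985 CPM, 3.64 times the highest. U3 has near-identical copies in the genome, and reads that matched several of them equally were not kept, so its level is uncertain in all 4 libraries. In each of these genes the beads library was above every SDS-PAGE library, although the SDS-PAGE libraries were themselves spread, with replicate 3 high in SNORD3A and replicate 2 low in SNORD18B.

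Taken as a class, C/D snoRNA genes held 3182, 3447 and 3151 CPM in replicates 1 to 3 (3260 ± 163, SD, n = 3) and 11573 CPM in the beads library, 3.36 times the highest. H/ACA snoRNA genes, whose RNAs guide pseudouridylation of ribosomal RNA, held 805, 1179, 1201 and 2221 CPM, 1.85 times the highest. Of the 313 C/D snoRNA genes, 141 had an event in or within 10 nt of the gene and 88 had at least 20 pooled events, a minimum that the beads library helps to pass. Among the 88, the beads library was above the range in 72 (81.8%), below it in 1 (1.14%) and inside it in the rest, beside 77.4% above and 2.03% below over all exonic genes with 100 events. The share above is thus near that of all exonic genes. Without replicate 3, it was above in 79 of the 83 with 20 events. The share above over all exonic genes with 100 events rose as well without replicate 3, to 88.2% of 608 genes.

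SNORD118, the U8 RNA needed for the processing of the large subunit's ribosomal RNAs, had 323, 180, 183 and 701 CPM. SNORD24, shown above, had 135, 205, 215 and 646 CPM, 3.01 times the highest. SNORD17 had 59.9, 99.2, 71.6 and 267 CPM, 2.69 times the highest. The beads library was inside the SDS-PAGE range in SNORD21, with 29.9, 47.9, 119 and 72.4 CPM, and below it in SNORD59A, with 5, 8, 6 and 1 events. SNORD118, SNORD24, SNORD17, SNORD21 and SNORD59A were picked from this class after their values were seen.

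Summed over the C/D snoRNAs, the beads library was inside the SDS-PAGE range in the front part of the RNA. The stretch from nucleotide 11 to 30 held 32.9%, 33.9%, 30.2% and 31.9% of the events in and within 10 nt of the genes, and the last 10 nt held 0, 2, 0 and 1 events. The 3 nt upstream of the annotated 5′ end held 9.92%, 13.7%, 13.5% and 16.5%. In CPM this upstream stretch had 359, 552 and 509 in replicates 1 to 3 and 2299 in the beads library, 4.16 times the highest. A cDNA that runs to the 5′ end of the RNA is assigned to the nucleotide before it, so events there cannot be told apart from cDNAs without a crosslink.

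Several protein-coding genes were above the range partly through snoRNAs annotated within their exons. RPL7A, a protein of the large ribosomal subunit, had 320, 354, 302 and 1275 CPM, and 88.2% of its beads events lay in or within 10 nt of small RNA genes, SNORD24 among them. Without such positions the beads library was 2.33 times the highest in place of 3.60 times. RPL4, another protein of the large subunit, whose gene spans SNORD18B, had 141, 200, 63.6 and 651 CPM, and its ratio was 3.26 with these positions and 2.46 without. NOP56, a core protein of C/D snoRNA particles, had 317, 413, 326 and 1024 CPM, with ratios of 2.48 and 1.67. HSPA8, the constitutive cytosolic HSP70, had 135, 152, 135 and 406 CPM, with ratios of 2.67 and 1.80. Over all genes, 72 exonic genes were called above when positions in or within 10 nt of small RNA genes were left out, and 70 of them were among the 87.

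Ribosomal protein genes lay above the range as a group. The exons of the 88 genes for cytosolic ribosomal proteins held 3122, 3854, 2808 and 9291 CPM, 2.41 times the highest. Without positions in or within 10 nt of small RNA genes they held 2574, 3262, 2252 and 7087 CPM, 2.17 times the highest. Of the 15 with enough events, 14 were above the range (93.3%) and 10 were called above (66.7%), beside 77.4% and 12.6% over all exonic genes. Scaled to exonic events, 10 of the 15 were above (66.7%), beside 33.9%. RPS24 (ENSG00000138326.21), a protein of the small subunit, had 150, 146, 47.7 and 512 CPM with no event at a small RNA gene, 3.42 times the highest (2.40 to 4.93). RPL35 had 44.9, 71.1, 15.9 and 239 CPM, and RPL5, which binds the 5S ribosomal RNA, had 168, 190, 95.5 and 551 CPM. RPS6, the phosphorylated protein of the small subunit, was above the range without passing 2-fold, with 135, 250, 231 and 362 CPM. Genes of this family have many processed pseudogenes, and reads that matched several places were not kept, so their levels are uncertain in all 4 libraries.

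Genes for chaperones and acidic nuclear proteins were high in the beads library too. NPM1 (ENSG00000181163.14), the nucleolar histone chaperone nucleophosmin, had 98.8, 134, 135 and 479 CPM, 3.54 times the highest (2.09 to 6.35). PTMA, the acidic protein prothymosin alpha, had 52, 119, 2 and 114 events, or 156, 197, 15.9 and 635 CPM. NAP1L1 and SET, both histone chaperones with acidic tails, had 102, 159, 159 and 490 CPM and 83.8, 121, 95.5 and 351 CPM. HMGN5, a nucleosome-binding protein with a long acidic tail, had 13, 44, 1 and 46 events and was 3.52 times the highest. Of 9 acidic histone chaperones and HMG proteins tested, 8 were above the range (88.9%) and 3 were called (33.3%), beside 77.4% and 12.6% over all exonic genes, and their median log2 ratio was 1.59 beside 0.92 over all exonic genes.

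The cytosolic HSP90 genes followed. HSP90AA1 had 452, 716, 461 and 2015 CPM, 2.81 times the highest (2.44 to 3.24), and HSP90AB1 had 198, 433, 318 and 980 CPM. HSP90B1, the form of the endoplasmic reticulum, had 227, 364, 374 and 941 CPM. Of the 8 tested HSP90, HSP70 and HSP60 genes, 6 were above (75%) and 4 were called (50%), so the share above was no larger than the 77.4% of all exonic genes and the share called was beside 12.6%. HSPA8, which is among the called genes, fell under 2-fold without positions in or within 10 nt of small RNA genes. Without such positions 10.9% of all exonic genes were called above. Scaled to exonic events, 4 of the 8 were above (50%) and 1 was below (12.5%), beside 33.9% and 13.5% over all exonic genes. On that scale 14 genes of all 691 were still called above, and 7 were called with edgeR's TMM factors.

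**Figure D2:**
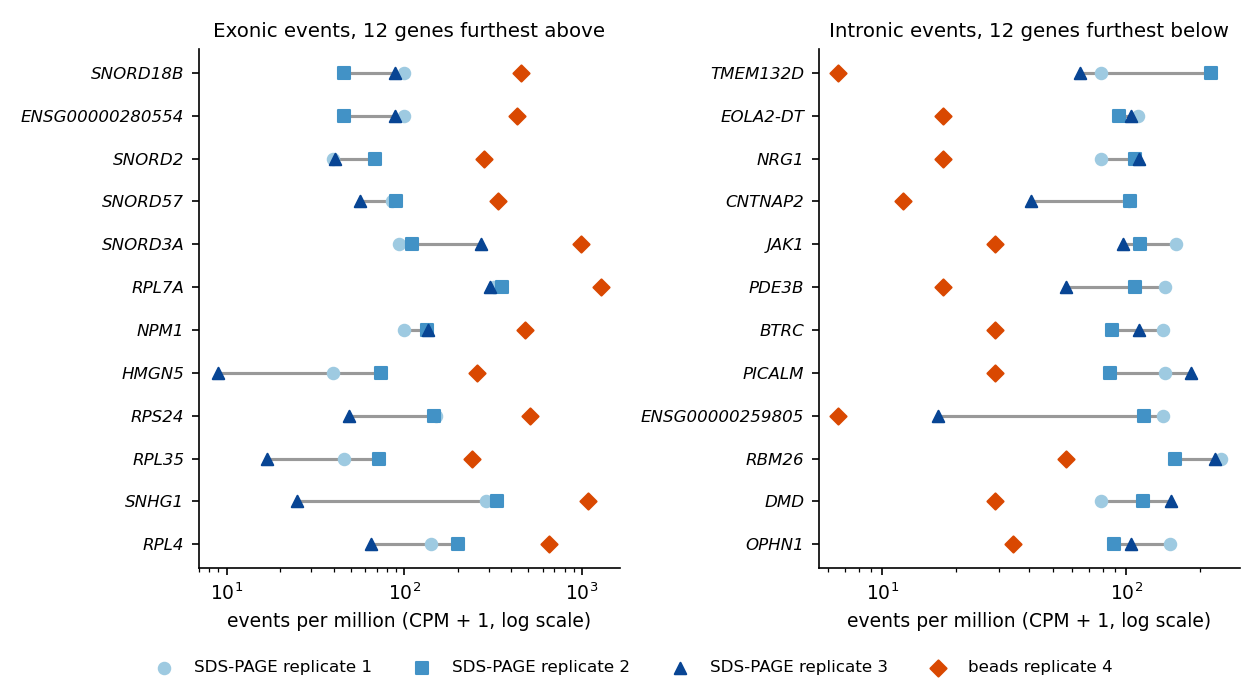
Level (CPM + 1, log scale) in each library for the 12 genes furthest above the SDS-PAGE range by exonic events (left) and the 12 furthest below it by intronic events (right), with a line from the lowest to the highest SDS-PAGE library. In SNORD18B the beads library lies at 451 CPM and the SDS-PAGE libraries at 98.8 CPM or less, and in TMEM132D it lies at 5.57 CPM, from 1 event.

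The busiest coding position of the beads library is shown for NPM1, PTMA, NAP1L1, SET, HSP90AA1 and NCL, the gene of nucleolin, because GAAGA-type pentamers are the motif the study examined. Each stretch is 40 nt of GRCh38 on the strand of the gene, from 5 nt before the crosslinked position to 34 nt after it, and can run past the end of an exon. Capitals mark GAAGA and its relatives GAGGA and GACGA, searched on the RNA strand only, with overlaps allowed. Of all crosslinked coding positions, 28.0% in the beads library and 28.7%, 27.9% and 25.5% in replicates 1 to 3 held at least 1 of these pentamers in such a stretch. The stretches lie at chr5:171392966-171393005 on the plus strand, chr2:231712481-231712520 on the plus strand, chr12:76049751-76049790 on the minus strand, chr9:128693918-128693957 on the plus strand, chr14:102085267-102085306 on the minus strand and chr2:231460755-231460794 on the minus strand.
NPM1: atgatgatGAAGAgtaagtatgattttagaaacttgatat
PTMA: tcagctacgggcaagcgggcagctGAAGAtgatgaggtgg
NAP1L1: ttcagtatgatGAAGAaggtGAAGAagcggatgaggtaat
SET: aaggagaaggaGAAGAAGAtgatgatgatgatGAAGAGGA
HSP90AA1: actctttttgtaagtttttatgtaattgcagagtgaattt
NCL: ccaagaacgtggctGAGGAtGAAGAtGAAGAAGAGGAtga
These positions held 5 of 73 coding events of NPM1 in the beads library, 7 of 95 of PTMA, 4 of 73 of NAP1L1, 4 of 57 of SET, 16 of 354 of HSP90AA1 and 9 of 335 of NCL. In the SDS-PAGE libraries together they held 0, 1, 3, 0, 4 and 17 events. The stretch of HSP90AA1, with the most events, held 0 of the pentamers, and a single busiest position carried little of any of these genes.

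Other nucleolar and translation genes lay above the range by less. Of 14 tested genes for nucleolar proteins, 14 were above the range (100%), 3 were called (21.4%) and 8 stayed above when scaled to exonic events (57.1%), beside 77.4%, 12.6% and 33.9% over all exonic genes. NOP56, which is among the called genes, fell under 2-fold without positions in or within 10 nt of small RNA genes. Without such positions 10.9% of all exonic genes were called above. NCL (ENSG00000115053.17) had 829, 1144, 724 and 2015 CPM, 1.76 times the highest, which is not a call. TCOF1, the nucleolar protein treacle, had 43, 138, 2 and 96 events and was called at 2.34 times the highest. Of 9 tested initiation factors, 8 were above (88.9%) and 1 was called (11.1%), beside 77.4% and 12.6% over all exonic genes. The called gene was EIF5B, which joins the ribosomal subunits, with 111, 182, 71.6 and 423 CPM. Scaled to exonic events, 4 of the 9 were above (44.4%) and 2 below (22.2%), beside 33.9% and 13.5% over all exonic genes. EEF2, the translocation factor of elongation, had 443, 929, 509 and 1470 CPM, 1.58 times the highest.

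Genes for splicing and chromatin proteins were called above at shares near or under the 12.6% of all exonic genes. Of 12 tested hnRNP genes, 10 were above (83.3%), near the 77.4% of all exonic genes, and 0 were called, and the exons of HNRNPU, which binds nuclear RNA and chromatin, had 724, 807, 382 and 1163 CPM. Of 7 tested SR and speckle genes, 4 were above (57.1%), 1 was below and 1 was called (14.3%): SRSF11, with 204, 275, 119 and 668 CPM. Of 21 tested chromatin remodellers, 21 were above (100%) and 2 were called (9.52%). Scaled to exonic events, 7 of the 21 were above (33.3%, beside 33.9% over all exonic genes) and 2 were below (9.52%, beside 13.5%). Of 16 genes for long coiled-coil proteins, 13 were above (81.2%), and scaled to exonic events 2 were above and 3 below. Both neurofilament genes with enough events were above the range: NEFM, the medium chain, had 829, 1152, 819 and 1848 CPM, and NEFL, the light chain, had 65.9, 139, 79.6 and 251 CPM.

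Mitochondrial RNAs differed among themselves. MT-RNR2, the large mitochondrial ribosomal RNA, had 16650, 54911, 11679 and 57171 CPM, so the beads library was only 1.04 times replicate 2. MT-RNR1, the small one, had 356, 1060, 278 and 2939 CPM, 2.77 times replicate 2 (2.47 to 3.12). Of 9 tested mitochondrial mRNAs, 8 were above the range (88.9%) and 3 were called (33.3%), beside 77.4% and 12.6% over all exonic genes. The 13 mitochondrial mRNAs together had 653, 1938, 692 and 2989 CPM, so replicates 1 and 3 were low and the SDS-PAGE range was wide.

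Long non-coding RNAs kept in the nucleus lay inside the range or near its edges. MALAT1, an abundant RNA of nuclear speckles, had 6173, 3876, 3373 and 4142 CPM, inside the range. NEAT1, the scaffold of paraspeckles, had 1485, 861, 1543 and 718 CPM, so the beads library lay 0.834 times the lowest (0.682 to 1.01). TUG1 was likewise just under the range, with 183, 131, 111 and 100 CPM, and KCNQ1OT1, the antisense RNA of the imprinted KCNQ1 locus, was just over it, with 443, 281, 453 and 462 CPM. Of these 4 genes, 1 was above (25%) and 2 were below (50%), beside 77.4% and 2.03% over all exonic genes. Scaled to exonic events, 0 of the 4 were above and 3 were below (75%), beside 33.9% and 13.5% over all exonic genes. The median log2 ratio of the 4 genes was −0.30, beside 0.92 over all exonic genes.

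The only exonic gene called below was ZZZ3, a subunit of a histone acetyltransferase complex, with 27, 64, 9 and 5 events. Its beads level was 0.389 times the lowest, with a counting interval of 0.102 to 1.29 that includes equality.

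Introns gave 7 genes called above the range, and 4 of them had most of their beads events at 1 position. TP63 (ENSG00000073282.14, chr3:189631389-189897276), a transcription factor of epithelia, was the gene that passed edgeR's test. It had 5, 39, 0 and 57 intronic events, or 15.0, 64.5, 0 and 317 CPM, with a log2 fold change of 3.28 (SE 0.76) and an adjusted p of 0.018. Its SDS-PAGE libraries held 44 events, so it reached 100 through the beads library, and with a minimum of 85 events in replicates 1 to 3 edgeR passed 0 of 1148 intronic genes. It was tested without replicate 3, with DESeq2 and with TMM factors, and did not pass. Without replicate 1, without replicate 2 or with each position counted once it had under 100 events and was not tested. It was not among the 1148 genes either. Of its 57 beads events, 54 lay at 1 position, which had 4, 32 and 0 events in replicates 1 to 3. In SEMA3F, a secreted guidance protein, 62 of 65 beads events lay at 1 position, with 11, 63 and 3 events there in the SDS-PAGE libraries. In ENSG00000268981, a non-coding gene, 66 of 114 lay at 1 position, with 9, 84 and 7. From 2 nt after that position, 39 nt are identical to a contig that holds a ribosomal DNA unit. The longest such runs were 17, 13 and 15 nt at the positions of TP63, SEMA3F and ENSG00000287651. Whether ribosomal RNA gave the events of ENSG00000268981 was not tested. In ENSG00000287651, 35 of 39 lay at 1 position, with 1, 54 and 0. Its SDS-PAGE libraries held 61 events, so it too reached 100 through the beads library. Of the 7 genes called above, 2 had at least 100 events in replicates 1 to 3 and 5 had at least 85. In all 4 genes the same position was thus used in replicate 2, and the gene levels of the beads library were 4.92, 3.22, 2.95 and 2.26 times those of replicate 2.

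The stretch around 3 of these positions is shown because the intronic calls rest on them, with that of TMEM132D, the intronic gene furthest below the range, at its busiest position in the SDS-PAGE libraries. Each is 61 nt of GRCh38 on the strand of the gene with the crosslinked base in capitals: chr3:189794909-189794969 (plus), chr3:50160727-50160787 (plus), chr7:35367036-35367096 (plus) and chr12:129223508-129223568 (minus).
TP63: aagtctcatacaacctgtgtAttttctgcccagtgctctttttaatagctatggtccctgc
SEMA3F: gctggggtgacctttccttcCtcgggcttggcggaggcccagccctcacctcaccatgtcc
ENSG00000287651: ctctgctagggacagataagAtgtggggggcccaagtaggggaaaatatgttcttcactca
TMEM132D: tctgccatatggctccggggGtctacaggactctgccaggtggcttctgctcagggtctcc

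The introns of GAS5, a non-coding host of many C/D snoRNAs, had 195, 192, 334 and 768 CPM, 2.30 times the highest (1.62 to 3.33). GENCODE 44 lists no snoRNA gene there, but RefSeq lists 11, and all 138 intronic beads events lay in or within 10 nt of them, against 95.4%, 94.8% and 88.1% in replicates 1 to 3. The exonic events of GAS5, 359, 569, 533 and 1414 CPM, lay in the same places in 96.5% of cases in the beads library. GRK2, a kinase of activated receptors, had 108, 76.1, 79.6 and 217 intronic CPM, and its busiest position held 2.56% of the beads events.

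On the other side, the 49 genes called below had few beads events, and 14 of them were protein-coding genes of 500 kb or more, which made up 149 of the 1070 genes tested. TMEM132D had 26, 134, 8 and 1 events, a ratio to the lowest SDS-PAGE library of 0.0875 (0.00197 to 0.652). Its busiest SDS-PAGE position, shown above, had 14, 105 and 0 events in replicates 1 to 3 and 0 in the beads library, where 0 allows up to 3 events. RBM26, an RNA-binding protein, had 243, 157, 231 and 55.7 intronic CPM, 0.354 times the lowest (0.165 to 0.681). PICALM, an adaptor of clathrin coats, had 144, 84.3, 183 and 27.8 CPM, and JAK1, a kinase of cytokine receptors, had 159, 112, 95.5 and 27.8 CPM. DMD, dystrophin, had 26, 70, 19 and 5 events, and CNTNAP2, a neuronal adhesion protein, had 34, 62, 5 and 2. In ENSG00000259805 the busiest SDS-PAGE position, with 41 of 120 events, borders a long run of T, and the beads library had 1 event in the whole gene. Of the 49 genes, 8 had Poisson intervals that did not touch those of the nearest SDS-PAGE library.

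As a group, the 323 protein-coding genes of 500 kb or more had 45504, 33777, 35165 and 23703 intronic CPM, 0.702 times the lowest. Of the 149 with enough events, 4 were above, 87 were below (58.4%) and 14 were called below (9.4%), beside 40.6% and 4.58% over all intronic genes, with a median log2 ratio of −0.67 beside −0.50 over all intronic genes. Scaled to intronic events, 15 were above and 60 below (40.3%), beside 24.6% below over all.

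The sequence around intronic positions differed more than that around coding positions. In introns, 28.1%, 27.3% and 17.3% of the crosslinked positions of replicates 1 to 3 had UUUUU starting between 5 nt upstream and 30 nt downstream, against 10.2% in the beads library. At the crosslinked position itself UUUUU covered 10.7%, 8.36% and 9.22% in replicates 1 to 3 and 3.23% in the beads library, and 31 to 50 nt upstream it covered 2.10%, 2.11%, 1.79% and 1.54%. The 5 intronic pentamers lowest in the beads library relative to the SDS-PAGE mean all held runs of U. After UUUUU came CUUUU (16.1%, 16.5%, 9.69% and 7.30% of positions), then UUUUG (16.8%, 16.6%, 12.3% and 8.09%), then UUUUA (20.5%, 19.6%, 11.8% and 9.44%) and then AUUUU (22.7%, 21.8%, 12.8% and 10.8%). The highest was CACGG (0.759%, 0.934%, 1.20% and 1.33%). Next were GCUGA (3.13%, 3.48%, 3.46% and 4.62%) and AGCUG (4.12%, 4.54%, 4.88% and 6.11%), both without a run of U. Of the 1024 pentamers, 369 were above the range in introns and 94 below, and in coding sequence 161 were above and 165 below.

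GAAGA in coding sequence did not set the beads library apart. It stood in 18.2% of the windows around coding positions of the beads library, inside the range of 19.4%, 18.6% and 15.0%, and its coverage peaked 9 nt downstream, against 12, 10 and 12 nt. GAGGA was just above the range, at 12.8% against at most 12.1%, and GACGA, at 2.79%, was inside it. In introns GAAGA stood in 8.11% of the beads windows, against 7.83%, 8.01% and 5.41%. Windows from nearby positions overlap, so these shares carry no test.

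The crosslinked base differed as well. In introns it was U at 34.0% of the beads positions, against 42.8%, 38.6% and 39.3%, and C at 23.7%, against 16.8%, 19.4% and 19.1%. The base after it, the first of the cDNA, was A at 38.2% in the beads library, against 27.3%, 29.2% and 21.8%. In coding sequence that base was A at 44.9%, against 35.7%, 40.8% and 26.8%. The mean GC content of 121 nt around intronic positions was 45.6% in the beads library, inside the range of 40.9%, 42.3% and 46.4%.

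Events of the beads library were also the least stacked. It had 1.15 events per crosslinked position, against 1.47, 1.67 and 2.16, and 1.13 against 1.19, 1.22 and 2.16 when each library was brought to the depth of replicate 3. Positions with a single cDNA held 83.0% of its events, against 47.6%, 40.4% and 32.2%. In coding sequence the share was 91.3%, against 41.1%, 36.6% and 8.50%, and in introns 92.2%, against 47.8%, 43.7% and 25.3%. These single-cDNA shares were taken at each library's own depth, and replicates 1 and 2 were deeper than the beads library. Events per position of replicates 1 and 2 fell to 1.19 and 1.22 at the depth of replicate 3. How much of the difference in shares follows depth was not tested. Replicate 3, which had the shorter random barcode, was at the other extreme, with 54.1% of its coding events at positions with 6 to 20 cDNAs against 0.453% in the beads library. With each position counted once, fewer genes reached 100: of 319 exonic genes 77 were called above (24.1%), 48 of them among the 87, and of 476 intronic genes 12 were called below (2.52%), 8 of them among the 49.

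The deposited lists of significant clusters gave 453 clusters in the beads library, against 507, 1970 and 577. The share of events in clusters was 9.78%, inside the range of 4.23%, 12.9% and 8.44%. The clusters were longer, with a median of 51 nt against 30, 39 and 18 nt. Of the events in clusters, coding sequence took 18.8% in the beads library and 10.9%, 14.4% and 16.4% in replicates 1 to 3. Of the beads clusters, 80.6% overlapped a cluster of replicate 2 by at least 1 nt, 41.1% one of replicate 1 and 23.2% one of replicate 3. In the other direction, 18.6% of the clusters of replicate 2, 37.5% of those of replicate 1 and 17.3% of those of replicate 3 overlapped a beads cluster. Across the 691 exonic genes, the levels of the beads library had Spearman correlations of 0.51, 0.65 and 0.27 with replicates 1 to 3, given as a description over genes that share the libraries' depth. By gene levels the beads library was most like replicate 2, the deepest library, while the cluster shares also follow the number of clusters in each library and differ by direction.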

How the data were processed

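Crosslinking of PR100-FLAG to RNA in HEK293T cells was measured by iiCLIP in 4 libraries, and the beads library was set against the 3 SDS-PAGE libraries. Reads were aligned by the authors with STAR (GRCh38, Gencode 27) after removal of PCR copies through their random barcodes, and reads with a unique place were retained. The authors deposited the count of unique cDNAs per position, unnormalised, with significant clusters called by iCount. The version of STAR is not given in the sources used here.

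Counts were summed per gene of GENCODE 44 on the same strand (62700 genes), a later annotation than that of the authors. An event was exonic in an exon of the gene, retained-intron transcripts left out, intronic inside the gene and in no exon of any gene on that strand, and counted for every gene that spans it. CPM used the library total. Genes with 100 pooled events of a kind were compared by their range and with edgeR 4.0.16 (quasi-likelihood test with library totals), and with DESeq2 1.42.0 as an alternative. Ratio intervals are exact 95% intervals from the counts. The gene sums were counted again in another way for 200 genes and were the same in all 200, and the edgeR step was tested on simulated data. Depth, 125694 to 604816 events, limits genes with few events in the smaller libraries.

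Named genes were the 12 furthest outside the range on each side and for each kind among those called, the genes named by the study, and up to 4 members of each gene list with the most events. Not all are described. The members, lists, tests and alternatives were chosen with earlier results of these data known. The alternatives changed the minimum of events, the scaling, the exons, the genes counted, the fold, the counting of positions and the libraries, and 7 were added after seeing the data (without small RNA genes, and replicate 3 or stacked positions left out of the snoRNA and within-gene counts). The gene that reveals sex was left out. A few genes and sequences are not reported here. Python 3.11.15, pandas 2.3.3, scipy 1.17.1 and pysam 0.24.0 were used, with R 4.3.3.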

Additional observations from a re-analysis of the deposited data

How the results depend on the processing

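A single beads library, the spread of replicate 3 and low counts limit every gene value, and calls depend on the scaling because exons take a larger share of the beads library. No paired analysis was possible because the groups share no replicate number. Of 113 values of the 9 results under alternatives, 57 stayed within the limit, and the others follow. The limit was 1.5 times the main value for counts, and the SD of replicates 1 to 3 for shares. None of the called gene values changed sign. Of 901 values of the 101 genes and kinds under alternatives, 723 stayed, 110 moved by more than the replicate spread, 43 were no longer called, 25 became called and 39 had the other sign, 20 of these with TMM and 13 scaled to the same kind. With TMM 47 of 101 moved and 23 were no longer called, and scaled to the same kind 46 and 17. Where no cause is named, the cause was not tested.

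Exonic genes called above, 87, became 208 with a minimum of 50 events, 33 with 200, 3363 with none, 14 scaled to exonic events, 7 with TMM factors, 259 at 1.5-fold and 17 at 3-fold, and 73 to 105 when 1 SDS-PAGE library was left out. Without replicate 2 only 180 exonic genes were tested, and 40 of the 80 called above were among the 87, as were 70 of 73 without replicate 1 and 85 of 105 without replicate 3. Exonic genes called below, 1, became 6, 0 and 364 with those minimums, 2 with a minimum of 85 events in replicates 1 to 3, 3 scaled to exonic events, 4 with TMM, 0 with positions counted once, 2 at 1.5-fold, 0 at 3-fold and 0 with Poisson intervals apart, and 1 to 3 with 1 library left out, 3 of them without replicate 1. Intronic genes called above, 7, became 21, 2 and 1313 with those minimums, 16 scaled to intronic events, 19 with TMM, 12 with canonical exons, 3 with positions counted once, 17 at 1.5-fold and 2 at 3-fold, and 2 to 8 with 1 library left out, 2 without replicate 2. Intronic genes called below, 49, became 242, 4 and 2084 with those minimums, 17 scaled to intronic events, 19 with TMM, 12 with positions counted once, 154 at 1.5-fold, 8 at 3-fold and 8 with Poisson intervals apart, and 20 to 84 with 1 library left out, 20 without replicate 1 and 84 without replicate 3. Without replicate 2, 349 intronic genes were tested and 9 of the 40 called below were among the 49.

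edgeR's count of exonic genes, 0, became 9 with a minimum of 200 events (fewer genes tested), 1 with none and 0 to 3 with 1 library left out, where 3 without replicate 3 were SNORD18B, ENSG00000280554 and SNORD3A. Its count of intronic genes, 1, became 0 with a minimum of 50 events, 200 events, none or 85 in replicates 1 to 3, scaled to intronic events, with TMM, with positions counted once and with DESeq2, and 0 to 1 with 1 library left out, where the gene without replicate 2 was ENSG00000268981 and not TP63. TP63 was not among the genes tested with a minimum of 200 events or of 85 in replicates 1 to 3. Nor was it among those tested without replicate 1, without replicate 2 or with positions counted once. The share of events in clusters, 9.78%, was 15.3% in the pooled clusters. The share of coding windows with GAAGA, 18.2%, was 25.8% within 30 nt on either side, and the like share was 8.11% in introns and 6.02% in 3′ UTRs.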

Other observations

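Within 5 nt of the start of canonical mRNAs, where the 5′ end of the RNA lies, the libraries had 662, 1090, 1472 and 1681 CPM in replicates 1 to 3 and the beads library, which was thus 1.14 times the highest. The 7SK RNA (RN7SK), which holds an elongation kinase in check, had 548, 387, 231 and 946 CPM in its gene, 1.73 times the highest (1.39 to 2.14). RMRP, the RNA of a nucleolar endonuclease, had 8, 30, 0 and 26 events, while the minor spliceosomal RNA RNU12 had 83.8, 324, 390 and 401 CPM and RNU11 had 9, 53, 8 and 9 events. By chromosome, chromosome 19 took 3.88%, 4.24%, 5.19% and 6.09% of intronic events, and chromosome 13 took 2.93%, 2.84%, 2.79% and 2.31%.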
